A study of Mus musculus with 10 samples.

Results

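Mouse bone-marrow-derived macrophages exposed to the lipopeptide Pam3CSK4 for 3 h were compared with untreated cells, using every gene with a mean of at least 1 CPM (read counts scaled to a common library size) over all libraries. The comparison used 4 of the 10 libraries of the series, 2 treated and 2 untreated, and 11407 of the 11617 genes in the deposited table passed the level rule. Just inside that line lay Snhg11 at a mean of 1.0029 CPM and Wnt5b at 1.0051, and just outside it Zfp647 at 0.9996 and Nxph4 at 0.9984.

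All cells came from C57BL/6 bone marrow and were grown in DMEM with 10% fetal bovine serum and GM-CSF at 50 ng/ml, so the untreated cells shared this growth factor with the treated ones. The treated group received Pam3CSK4 at 10 ng/ml for 3 h, and the untreated control carries no time label. A further Pam3CSK4 group was taken at 1 h. AmTARS, a threonyl-tRNA synthetase from Akkermansia muciniphila, which lives in the gut, was given for 1 h or 3 h at a dose whose unit cannot be set beside that of Pam3CSK4. The growth protocol gives the mice an age of 7 weeks and the origin label 6 weeks. No label says whether replicates were grown as separate cultures or taken from separate animals. The p-values measure the spread between libraries of a group, pooled over all 5 groups, which may be technical. In GM-CSF cultures of bone marrow, macrophages, dendritic cells and granulocytes can grow side by side, and in bulk RNA fewer cells of a type cannot be told from less RNA per cell.

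Pam3CSK4 is a synthetic triacylated lipopeptide that mimics bacterial lipoproteins. It binds the receptor pair TLR2 and TLR1, helped by CD14. The adaptor MyD88 then recruits IRAK kinases and the ligase TRAF6, which switch on the kinases that free NF-kB from its IkB inhibitors and those that activate MAP kinases and AP-1. In macrophages the early targets are cytokines, chemokines and the inhibitors that later shut the pathway down, and the route from TLR2 at the cell surface induces less type I interferon than the route through the adaptor TRIF. The series record names a comparison of transcript levels under AmTARS and Pam3CSK4, both as ligands of TLR2.

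Macrophage identity was checked on 9 marker genes, all of them listed, whose summed level, mostly that of Lyz2, was 49509 and 51207 CPM in the control libraries and 51934 and 54100 in the Pam3CSK4 libraries. Of these markers 3 were higher and 4 lower, and with quantile scaling 1 and 5. Of 11 dendritic-cell markers 4 were listed, with sums of 90.1 to 96.4 CPM in these 4 libraries, and Flt3, Zbtb46, Xcr1 and Clec9a were not in the table used. Neutrophil markers were listed for 10 of 11 genes, without Ly6g, and summed to 2149 and 2237 CPM in the control against 2774 and 3167 in the Pam3CSK4 libraries. Stromal markers, listed for 7 of 8 genes, summed to 1557 and 1642 CPM in the control and to 1364 and 1559 with Pam3CSK4. B-cell markers and T- and NK-cell markers were each listed for 1 gene, mast-cell markers for 4 of 7, and erythroid markers for 0 of 6. Reads in listed genes numbered 33600803 and 34415950 in the control libraries and 34186338 and 37400483 in the Pam3CSK4 libraries.

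The control libraries stood apart from the treated ones in scaling and in transcript length. Their listed genes summed to 959639 and 960837 CPM, against 1004649 and 1037796 with Pam3CSK4 for 3 h, so the scaling moved all genes slightly. With plain scaling by reads in listed genes, the median log2 change over all tested genes moved from -0.01 to -0.09. Short transcripts were on the whole higher than in the control and long ones lower: the median transcript length was 2006 nt for genes called higher, 4715 nt for genes called lower and 3113 nt for all tested genes. Where a correction of every library for length and GC content of the transcripts ended the call of a named gene, this is said beside it. The part of scaling and length in those small changes was not tested.

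The response at 3 h consisted of many small changes and a short tail of large rises. By limma with Benjamini-Hochberg adjustment (adjusted p below 0.05), 2812 genes were higher and 2764 lower, or 24.7% and 24.2% of the tested genes. These shares are the background for the counts of every list against the control below. Of the 5576 genes called, 2920 changed less than 1.25-fold, and the median size was 0.31 on the log2(CPM + 1) scale, which understates the change of genes of low level. At least 2-fold rises numbered 127 (1.11% of tested genes) and at least 2-fold falls 26 (0.228%), with 21 rises and 0 falls of at least 4-fold. After the length and GC correction 2359 genes were higher (20.8% of the 11366 with an annotation) and 2421 lower (21.3%), and 115 of the 127 large rises and 14 of the 26 large falls still reached 2-fold. With plain scaling 1868 genes were higher and 3914 lower, so rises made up 32.3% of the calls instead of 50.4%. The 127 large risers together held 6052 and 6090 CPM in the control libraries and 17710 and 22108 with Pam3CSK4, and the 26 large fallers went from 904 and 884 CPM to 439 and 351.

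**Figure D1:**
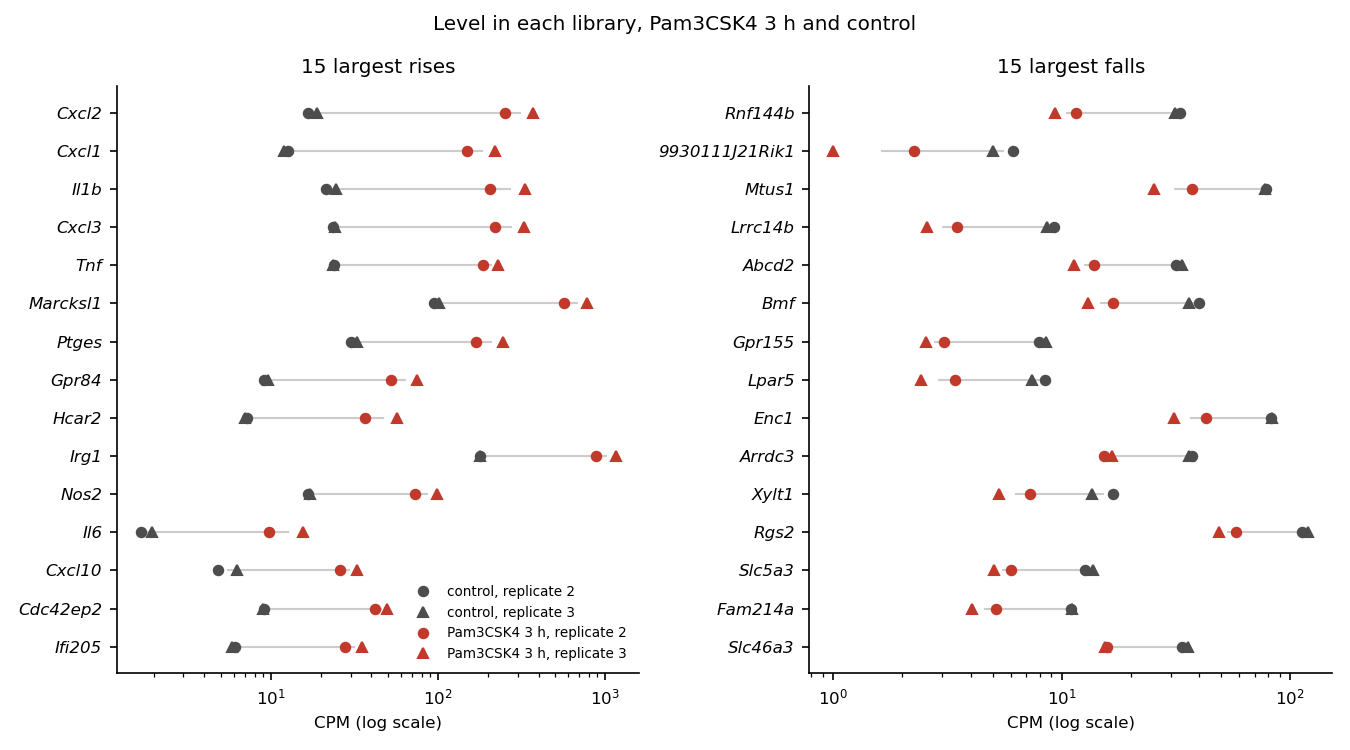
Level of the 15 genes with the largest rises and the 15 with the largest falls, in CPM on a log axis. Each point is 1 library (grey control, red Pam3CSK4 for 3 h, circles replicate 2, triangles replicate 3) and a grey line joins the group means. In every row the red points lie entirely to the right of the grey ones for rises and to the left for falls. The rule that picked these genes required this separation.

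Receptors for the ligand rose while most other Toll-like receptors fell. Of 13 genes of Toll-like receptors and co-receptors, 3 were higher and 7 lower, with a median of -0.20 against -0.01 over all tested genes. Tlr2, the receptor of the ligand, stood at 245 and 249 CPM in the control and at 760 and 896 with Pam3CSK4. Both treated libraries lay above both controls, and the log2 fold change was 1.74 (SE 0.06, adjusted p = 4.25e-15 in limma). How many of all tested genes show such a separation was not counted. Tlr1, its partner for triacylated lipopeptides, went from 29.2 and 29.3 to 52.1 and 59.3 CPM (0.90, SE 0.07). Cd14, the co-receptor that hands lipopeptide and lipopolysaccharide to the receptors, went from 626 and 617 to 1667 and 2084 CPM (1.58, SE 0.07). Its gain in CPM ranked 4 among the genes that met the naming rule given below. Tlr6, the partner for diacylated lipopeptides, stood at 0.06 and did not pass.

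The receptors that fell were those for other ligands. Tlr8, an endosomal sensor of RNA, went from 156 and 153 to 84.6 and 75.1 CPM (-0.95, SE 0.06). Tlr4, the lipopolysaccharide receptor, went from 92.9 and 88.9 to 60.6 and 53.7 CPM (-0.66, SE 0.07). Cd180 fell by 0.75, Tlr7 by 0.64, Tlr9 by 0.57 and Tlr13 by 0.50. Tlr3 stood at -0.20 and no longer passed after the length and GC correction (-0.12). Part of these falls was already there at 1 h: Tlr8 averaged 83.1 CPM with Pam3CSK4 for 1 h, and its difference between 3 h and 1 h was -0.06 (adjusted p = 0.547 in limma).

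Of 20 genes of the MyD88 pathway 7 were higher and 2 lower (under the length and GC correction 10 and 3, with plain scaling 4 and 6, where the median turned from 0.04 to -0.05). Ikbke, a kinase related to the IkB kinases, went from 157 and 149 to 277 and 287 CPM (0.87, SE 0.05). Irak2, which keeps TRAF6 signalling going, went from 84.2 and 80.5 to 139 and 149 CPM (0.79, SE 0.05), and Myd88 itself rose by 0.50. Irak4, the first kinase that MyD88 recruits, fell by 0.19 and did not pass without control replicate 2 (-0.21) or 3 (-0.17) or Pam3CSK4 3 h replicate 3 (-0.09). Ikbkb stood at 0.01, Map3k7 at 0.01, Irak1 at -0.06 and Traf6 at 0.06, and none of these passed, but under the length and GC correction Traf6 (0.25) and Map3k7 (0.18) did.

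The list of NF-kB subunits and IkB family genes rose almost as a whole. Of its 11 genes 10 were higher, 0 were lower and 1 did not pass, with a median of 1.16, and all 11 were higher after the length and GC correction. Nfkbiz, a nuclear IkB protein needed for secondary targets such as Il6, went from 21.3 and 20.4 to 88.9 and 99.1 CPM (2.12, SE 0.06). Nfkbie went from 40.8 and 39.6 to 149 and 169 CPM (1.95, SE 0.06) and Nfkbia, the classical IkB inhibitor, from 118 and 120 to 368 and 422 CPM (1.72, SE 0.05). In all 3 of these IkB family genes the treated libraries lay above 3 times the control level. Among the subunits that bind DNA, Nfkb2 rose by 1.57, Relb by 1.44, Nfkb1 by 0.94 and Rela by 0.64. Rel was the exception, at 9.54 and 8.99 CPM in the control and 9.64 and 9.21 with Pam3CSK4 (0.02, adjusted p = 0.862 in limma). Rel was nevertheless higher than at 1 h by 0.73 (adjusted p = 3.74e-06 in limma), where it averaged 5.27 CPM.

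Inhibitors acting further along the pathway rose beside the IkB proteins. Of 16 brakes of receptor and cytokine signalling 9 were higher and 2 lower, with a median of 0.54. Socs3, which blocks signalling by the IL-6 receptor, went from 47.3 and 43.1 to 165 and 194 CPM (1.96, SE 0.07). Tnfaip3, the ubiquitin-editing enzyme A20, went from 49.2 and 47.2 to 128 and 143 CPM (1.47, SE 0.06), and its partners Tnip3 and Tnip1 rose by 1.45 and 1.25. Irak3, an IRAK family member that restrains the others, went from 79.5 and 74.6 to 175 and 212 CPM (1.31, SE 0.07). Zc3h12a, a nuclease that degrades cytokine mRNAs, rose by 1.29. The mRNA-destabilising relatives of tristetraprolin went the other way from it: Zfp36l2 went from 183 and 181 to 129 and 101 CPM and Zfp36l1 from 167 and 162 to 112 and 107, while Zfp36 rose by 0.41.

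Of 19 immediate-early transcription factor genes 10 were higher and 1 lower, with a median of 0.29. Maff went from 5.97 and 5.56 to 16.7 and 21.5 CPM (1.56, SE 0.11) and Ier3 from 43.4 and 43.8 to 103 and 118 CPM (1.32, SE 0.06). Junb, an AP-1 subunit, went from 181 and 171 to 331 and 325 CPM (0.90, SE 0.06). Fos rose by 0.47, Jun stood at -0.10 without passing, and Atf3 fell by 0.24. Against 1 h, 8 of the 19 were lower and 4 higher, so in this list more members declined after 1 h than rose, as the values by time below show. Of 16 feedback genes of MAP kinases 8 were higher and 2 lower: Dusp1, the phosphatase of p38 and JNK, went from 33.9 and 34.5 to 75.5 and 92.6 CPM (1.26, SE 0.08), Dusp16 rose by 1.05, and Dusp7 fell by 0.56.

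Of 20 cytokine and growth factor genes tested 14 were higher and 2 lower, with a median of 0.52. Il1b, the precursor of interleukin-1 beta, stood at 21.5 and 24.6 CPM in the control and at 206 and 332 with Pam3CSK4. Tnf stood at 23.7 and 23.6 CPM and at 186 and 228. Both groups were far apart for each gene, with log2 fold changes of 3.45 (SE 0.13) and 3.07 (SE 0.07). Il6 began near the lower limit, at 1.66 and 1.95 CPM, and reached 9.79 and 15.5 CPM (2.25, SE 0.17, adjusted p = 2.04e-09 in limma). Lif, a relative of IL-6, went from 5.28 and 5.42 to 19.2 and 23.8 CPM (1.82, SE 0.11). Il12a, the p35 subunit of IL-12, went from 1.09 and 1.17 to 5.35 and 7.44 CPM (1.78, SE 0.14), while its partner Il12b stood at 0.50 and lost its call without control replicate 2 or Pam3CSK4 3 h replicate 3. Il1a and Tnfsf9, the ligand of the receptor 4-1BB, rose by 1.68 and 1.62. Il15 and Il16 fell by 0.28 and 0.26, the latter not passing after the length and GC correction (-0.11). Il10 stood at 0.486 and 0.614 CPM in the control and 0.999 and 1.14 with Pam3CSK4, and Csf3 at 0.114 and 0.195 against 1.76 and 4.47, both below the level rule and not tested. Csf2, Il23a and Ifnb1 were not in the table used.

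Chemokines that recruit neutrophils held 3 of the 4 largest rises. Of 17 chemokine genes 15 were higher and 0 lower, with a median of 0.99. Cxcl2 stood at 16.7 and 18.8 CPM in the control and at 252 and 369 with Pam3CSK4, a 16.3-fold rise in CPM + 1 (log2 4.03, SE 0.11, adjusted p = 3.87e-16 in limma). Cxcl1 stood at 12.6 and 12 CPM against 149 and 219 (3.77, SE 0.11), and Cxcl3 at 23.6 and 24.3 against 219 and 326 (3.43, SE 0.11). The lowest treated library exceeded the highest control library many times over in each of the 3. All lie close together on chromosome 5 in mm10, Cxcl3 at 90786103 to 90789600, Cxcl1 at 90891241 to 90893115 and Cxcl2 at 90903871 to 90905938.

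The proximal promoters of these 3 genes are shown because each carries the same kappa-B match. Sequences are from RefSeq (GRCm38.p6, plus strand), 180 bases before the start and the first 20 from it, at chr5:90903719-90903918, chr5:90891065-90891264 and chr5:90785921-90786120. Capitals mark the match, which begins 97, 71 and 73 bases before the start.

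Cxcl2: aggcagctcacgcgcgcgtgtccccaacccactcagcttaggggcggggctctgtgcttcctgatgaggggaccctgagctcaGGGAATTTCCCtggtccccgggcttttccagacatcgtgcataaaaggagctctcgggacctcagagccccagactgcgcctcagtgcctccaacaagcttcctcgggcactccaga
Cxcl1: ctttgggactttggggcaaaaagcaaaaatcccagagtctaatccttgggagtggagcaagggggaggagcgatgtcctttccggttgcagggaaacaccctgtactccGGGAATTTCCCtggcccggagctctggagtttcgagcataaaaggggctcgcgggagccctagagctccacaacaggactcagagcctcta
Cxcl3: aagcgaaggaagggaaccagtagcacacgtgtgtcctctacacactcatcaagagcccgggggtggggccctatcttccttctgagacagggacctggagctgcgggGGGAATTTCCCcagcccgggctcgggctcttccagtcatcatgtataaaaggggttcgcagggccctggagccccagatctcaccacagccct

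The motif searched was GGGANNNTCC on both strands, where N is any base, and overlapping matches were joined. The run GGGAATTTCCC is the same in all 3 promoters and holds a match on each strand. Among the promoter windows of 300 bases of the 15 largest rises, 5 of 13 held a match (38.5%), against 13 of 136 for all genes at least 2-fold higher (9.56%), 2 of 32 for genes at least 2-fold lower (6.25%) and 627 of 11608 for all tested genes (5.40%). Cxcl1, Cxcl2 and Cxcl3, neighbours with the same run, make up 3 of the 5 matches and are also among the 13. Nfkb2 counts among the 13 with more than 1 window. These windows are therefore not independent, and the shares were not tested. Promoters matched 9106 of the 11407 genes, some with more than 1 start. The looser form GGGNNNNNCC, which contains the motif above, was in 66.9% of the windows of 2-fold risers and 67.3% of all windows. The AP-1 motif TGANTCA was in 11.8% of the windows of risers and 5.19% of all, and the CRE motif TGACGTCA in 2.21% and 3.02%. A match is a description of these letters and not a site of binding.

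Among the remaining chemokines, Cxcl10, which attracts T cells, went from 4.8 and 6.23 to 26 and 32.6 CPM (2.22, SE 0.14). Ccl3, which attracts monocytes, went from 29.2 and 30.9 to 104 and 155 CPM (2.05, SE 0.11). Ccl2 went from 21.3 and 22.7 to 58.5 and 76.9 CPM (1.57, SE 0.09). Both treated libraries of each gene lay above both controls, which the naming rule required of Cxcl10. Ccl4 rose by 1.48, Cxcl5 by 1.40, Ccl7 by 0.98 and Cxcl16 by 0.63. Ccl6, the most abundant chemokine gene of the list at 880 CPM in the control, stood at 0.10 and did not pass. Cxcl9 and Cxcl11 were not in the table used.

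Among genes at least 2-fold changed and named here, Il6, Cxcl10, Nfkbia, Il12a, Nfkb2, Maff and Ccrl2, which rose, and Mertk and Bmf, which fell, also held a match. The windows of Il6, Cxcl10 and Nfkbia are printed as examples, chosen after the match had been seen there. They lie at chr5:30012934-30013133 (plus strand), chr5:92348870-92349069 (minus strand) and chr12:55492628-55492827 (minus strand) in GRCm38.p6, from RefSeq, each printed 5′ to 3′ on the strand of the gene. The match in capitals begins 44, 159 and 29 bases before the start.

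Il6: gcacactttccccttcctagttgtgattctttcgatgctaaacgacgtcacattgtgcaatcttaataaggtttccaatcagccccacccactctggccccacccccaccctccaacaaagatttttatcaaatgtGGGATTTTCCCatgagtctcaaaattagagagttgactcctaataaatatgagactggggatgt
Cxcl10: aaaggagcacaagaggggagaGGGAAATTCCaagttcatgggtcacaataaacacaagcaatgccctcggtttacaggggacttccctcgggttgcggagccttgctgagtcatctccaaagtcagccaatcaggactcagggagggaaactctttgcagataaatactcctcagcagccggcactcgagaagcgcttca
Nfkbia: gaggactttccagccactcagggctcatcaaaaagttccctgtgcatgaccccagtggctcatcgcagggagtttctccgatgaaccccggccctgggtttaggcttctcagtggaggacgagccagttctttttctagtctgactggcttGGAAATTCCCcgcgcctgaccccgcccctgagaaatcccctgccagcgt

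Il6 holds GGGATTTTCCC, a match on each strand, Cxcl10 GGGAAATTCC on the strand of the gene, and Nfkbia GGAAATTCCC, a match read on the opposite strand. The windows of Tnf, Il1b, Irg1, Ptges, Marcksl1, Gpr84, Cdc42ep2 and Ifi205 did not contain these letters.

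Receptors for chemokines did not rise as a list in the way the chemokines did. Of 11 chemokine receptor genes 2 were higher and 4 lower, with a median of -0.16, beside 24.7% higher and 24.2% lower over all tested genes. Ccrl2, an atypical receptor that binds chemerin, went from a mean of 39.0 to 93.0 CPM (1.23, SE 0.06). Cxcr4 went from 420 and 412 to 272 and 216 CPM (-0.77, SE 0.07), and Ccr2, the CCL2 receptor of monocytes, from 16.6 and 16.1 to 9.08 and 7.21 CPM (-0.93, SE 0.09). Cxcr3 fell by 0.94. Of 27 cytokine receptor genes 10 were higher and 7 lower, and with plain scaling 8 and 8. Tnfrsf1b, the second TNF receptor, went from 1599 and 1573 to 2260 and 2648 CPM (0.63, SE 0.06). Il6ra went from 52.5 and 45.8 to 32.0 and 24.7 CPM (-0.78, SE 0.09), its partner Il6st fell by 0.50, and both TGF-beta receptor genes, Tgfbr1 and Tgfbr2, fell by 0.67 and 0.51. The receptor genes of the growth factor in the medium, Csf2ra and Csf2rb, stood at 0.11 and 0.07 and did not pass.

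**Figure D2:**
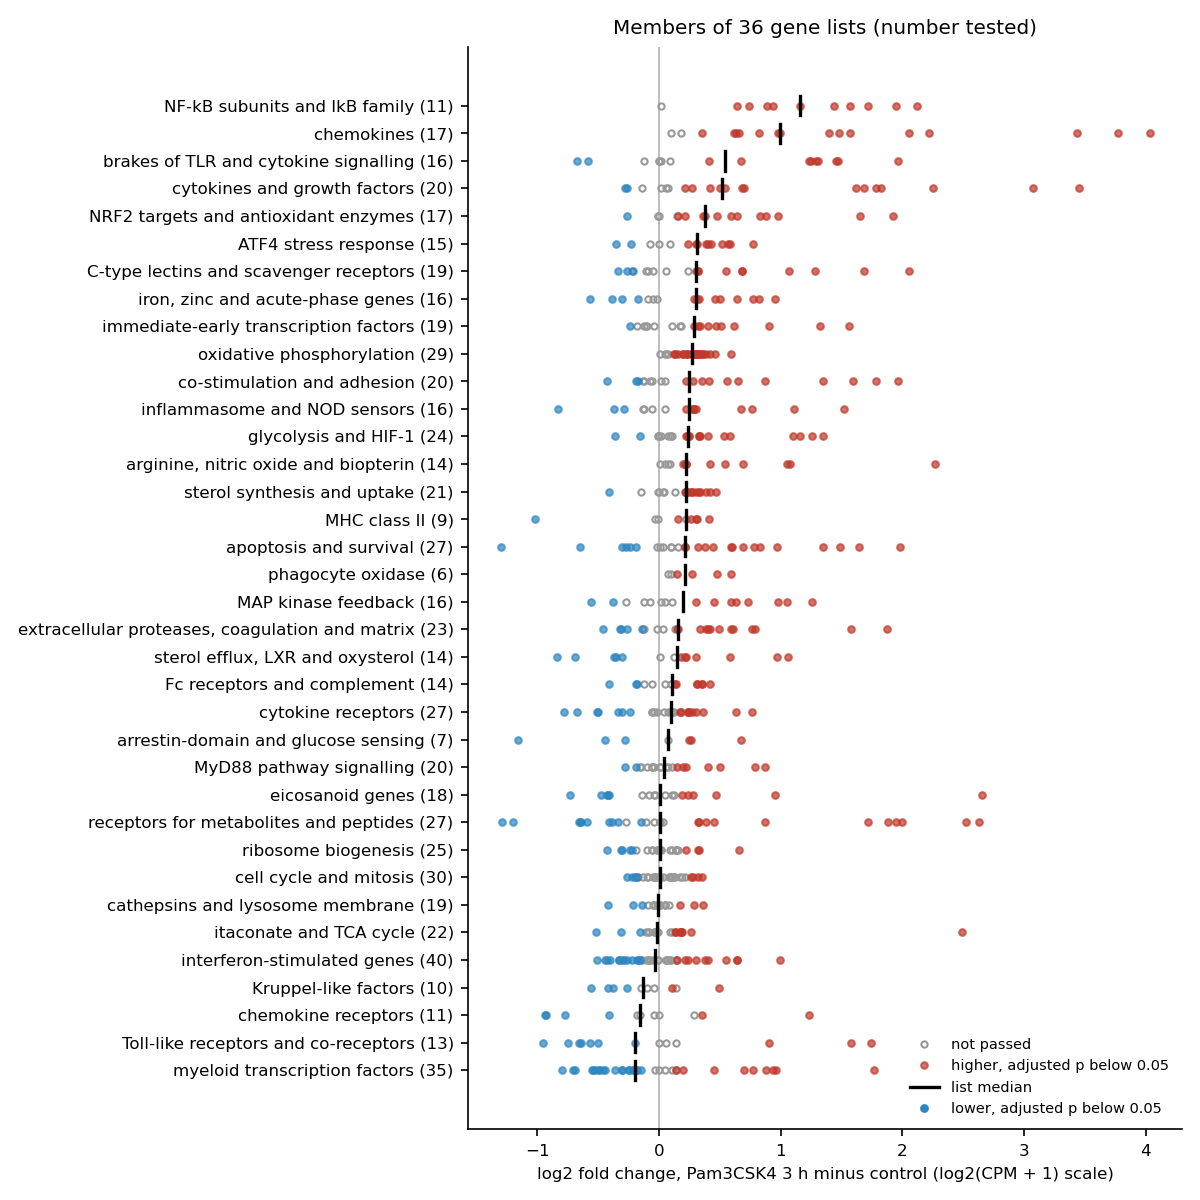
Log2 fold change of every tested member of the 36 gene lists, Pam3CSK4 for 3 h minus control, ordered by list median (black bar). Red points were higher and blue points lower at an adjusted p below 0.05, open points did not pass. The joint list of NF-kB subunits and IkB family leads with a median of 1.16, followed by chemokines at 0.99, and myeloid transcription factors and Toll-like receptors stand last at -0.20 each.

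Receptors for metabolites, formyl peptides and adenosine held some of the largest rises and some of the largest falls. Of 27 tested genes 11 were higher and 10 lower, with 6 rises and 2 falls of at least 2-fold. Gpr84, a receptor for medium-chain fatty acids, went from 9.05 and 9.55 to 52.3 and 75.2 CPM (2.63, SE 0.11). Hcar2, the receptor for niacin and beta-hydroxybutyrate, went from 7.17 and 7.04 to 36.7 and 56.6 CPM (2.52, SE 0.12). Fpr1, a receptor for bacterial formyl peptides that neutrophils also express, went from 93.4 and 99.6 to 335 and 448 CPM (2.00, SE 0.08), and Fpr2 rose by 1.72. The adenosine receptor genes Adora2b and Adora2a rose by 1.95 and 1.88, from 6.08 and 7.40 to 27.4 and 30.3 CPM and from 14.1 and 12.8 to 46.1 and 58.5 CPM. Lpar5, a receptor for lysophosphatidic acid, went from 8.45 and 7.43 to 3.41 and 2.41 CPM (-1.20, SE 0.12), and P2rx7, the ATP-gated channel, fell by 0.66. Neutrophil markers moved in the same direction as the formyl peptide receptors: 7 of 10 were higher and 1 lower, S100a8 went from 327 and 386 to 519 and 634 CPM and Camp from 27.4 and 27.7 to 44.1 and 52.8. The neutrophil marker sum, 2149 and 2237 CPM in the control, was higher in the other treated groups too. It was 2953 and 2565 CPM with Pam3CSK4 for 1 h, 2596 and 2670 with AmTARS for 1 h, and 2699 and 2602 with AmTARS for 3 h. The part of these markers in the result was not tested. Against 1 h, Fpr1 was higher by 1.95 (adjusted p = 4.65e-13 in limma), and of the 10 neutrophil markers 2 were higher and 0 lower.

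Among pattern-recognition receptors other than the Toll-like family, 10 of 19 C-type lectin and scavenger receptor genes were higher and 3 lower, 6 lower after the length and GC correction. Clec4e, the receptor Mincle for mycobacterial glycolipid, went from 286 and 314 to 1083 and 1419 CPM (2.05, SE 0.08) and gained 951 CPM on average. Olr1 went from 4.60 and 4.02 to 14.3 and 17.9 CPM (1.68, SE 0.11) and Marco, a scavenger receptor for bacteria, from 22.8 and 24.3 to 52.2 and 65.4 CPM (1.28, SE 0.09). Mrc1, the mannose receptor, fell by 0.34. Of 16 inflammasome and NOD genes 9 were higher and 3 lower: Nlrp3 went from 94.6 and 89.7 to 241 and 294 CPM (1.52, SE 0.07), Casp4 rose by 1.11 and Nod2 by 0.76, while Nlrp1b fell by 0.83. Casp1 rose by 0.28, and Pycard, the adaptor ASC, stood at 0.05 without passing. The Clec4a and Naip genes have close relatives, so reads may have been split among them.

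Co-stimulatory and adhesion genes were higher in 11 of 20 cases and lower in 3. Cd40 went from 4.48 and 4.55 to 18.9 and 22.2 CPM (1.96, SE 0.10), Icosl from 5.11 and 4.72 to 17.3 and 21.4 CPM (1.78, SE 0.10) and Icam1, a ligand of leukocyte integrins, from 93.3 and 88.1 to 257 and 294 CPM (1.59, SE 0.06). In none of these genes did the groups overlap. The share of all tested genes without overlap was not counted, and an exact permutation test of 2 libraries against 2 cannot go below 0.333. Cd80 and Cd86, the classical ligands of CD28, rose by 0.41 and 0.28, and Cd274, which encodes PD-L1, stood at 0.02 without passing. Of 9 MHC class II genes 5 were higher and 1 lower, and 3 and 2 after the length and GC correction. H2-Ab1 rose by 0.41, while Ciita, the master activator of these genes, went from 3.80 and 3.41 to 1.32 and 1.22 CPM (-1.02, SE 0.12).

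Genes of inflammatory metabolism rose in a few steps of each pathway. Irg1, also named Acod1, makes itaconate from a TCA cycle intermediate and went from 179 and 179 to 882 and 1154 CPM (2.49, SE 0.08). Of 22 genes of itaconate and the TCA cycle 8 were higher and 3 lower, which turned to 4 and 8 under the length and GC correction, and to 2 and 6 with plain scaling. Apart from Irg1, the largest member change was Idh1, from 472 and 499 to 349 and 328 CPM (-0.52, SE 0.05). Nos2, the inducible nitric oxide synthase, went from 16.6 and 17.2 to 73.2 and 99.1 CPM (2.27, SE 0.10). Gch1, which starts the synthesis of its cofactor biopterin, went from 27.0 and 27.1 to 53.1 and 64.0 CPM (1.08, SE 0.07), and Odc1, the first enzyme of polyamine synthesis, rose by 1.05. In the whole list of arginine, nitric oxide and biopterin genes 10 of 14 were higher and 0 lower, with Arg1 at 0.42.

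Of 24 genes of glycolysis and HIF-1 14 were higher and 2 lower, with a median of 0.24. The largest rises were in 3 transporters and Egln3, an oxygen-sensing hydroxylase that rose by 1.26. Slc2a6, a hexose carrier, went from 44.5 and 43.8 to 105 and 124 CPM (1.35, SE 0.06), Slc2a1, the glucose carrier GLUT1, from 112 and 108 to 220 and 276 CPM (1.16, SE 0.07), and Slc16a3, the lactate exporter, from 121 and 119 to 234 and 286 CPM (1.10, SE 0.07). Of the enzymes, Pfkl rose by 0.53, Ldha by 0.34 and Hk2 by 0.22, and Pkm stood at 0.10 without passing. Gapdh and Aldoa, at 0.23 and 0.25, no longer passed after the length and GC correction (0.03 and 0.06). Of 29 oxidative phosphorylation genes 25 were higher and 0 lower, with a median of 0.27, but after that correction 4 were higher and the median was 0.03. These subunits have short transcripts, and the part of length in their rise was not tested.

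Antioxidant genes were higher in 12 of 17 cases and lower in 1. Sod2, the mitochondrial superoxide dismutase and an NF-kB target, went from 167 and 175 to 583 and 727 CPM (1.92, SE 0.07). Slc7a11, the cystine importer that feeds glutathione synthesis, went from 67.7 and 73.1 to 199 and 251 CPM (1.65, SE 0.07). Sqstm1, Txnrd1 and Srxn1 rose by 0.98, 0.88 and 0.83, Hmox1 by 0.59, and Nqo1, a standard NRF2 target, stood at 0.00. Of 6 phagocyte oxidase genes 4 were higher, led by Ncf4 at 0.59, and 2 were with quantile scaling. Of 16 iron, zinc and acute-phase genes 9 were higher and 4 lower (7 and 3 under the length and GC correction, 9 and 6 with plain scaling). Fth1, ferritin heavy chain, gained 5982 CPM and Ftl1, its light chain, 3954, log2 changes of 0.29 and 0.33 that stood at 0.12 (adjusted p = 0.0501) and 0.05 (adjusted p = 0.388) in limma after the length and GC correction. Fth1 also did not pass without control replicate 2 (0.25). Saa3 and Lcn2, acute-phase genes, rose by 0.95 and 0.77. The ATF4 stress list had 10 of 15 genes higher and 2 lower, with Chac1 at 0.77 and Atf4 at 0.57.

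Of 18 eicosanoid genes 6 were higher and 5 lower (8 lower after the length and GC correction), beside 24.7% and 24.2% of all tested genes. Ptges, the inducible prostaglandin E2 synthase, went from 30.2 and 32.9 to 168 and 246 CPM (2.65, SE 0.10), and Ptgs2, cyclooxygenase 2, from 44.8 and 47.1 to 79.1 and 102 CPM (0.95, SE 0.08). Hpgd, which inactivates prostaglandin E2, went from 12.5 and 13.4 to 8.43 and 6.47 CPM (-0.73, SE 0.09), Hpgds, the hematopoietic prostaglandin D2 synthase, fell by 0.43, and Ptgs1, the constitutive cyclooxygenase, went from 63.8 and 59.8 to 49.2 and 43.3 CPM (-0.41, SE 0.06). The groups did not overlap in any of these genes, but how many of all tested genes show this was not counted. Of 21 sterol synthesis and uptake genes 14 were higher and 1 lower, with a median of 0.22 and Fdps, at 0.47, the largest. With plain scaling 9 were higher and 2 lower. Of 14 genes of sterol efflux and LXR 7 were higher and 5 lower: Nr1h3, the receptor LXR alpha, went from 24.1 and 22.4 to 45.7 and 47.6 CPM (0.97, SE 0.06) and Abca1 rose by 0.58, while Abcg1 went from 115 and 108 to 66.1 and 58.1 CPM (-0.84, SE 0.06). Apoe gained 3208 CPM (0.21), did not pass without control replicate 2 or 3, and after the length and GC correction it stood at -0.02 (adjusted p = 0.796 in limma).

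Of 40 interferon-stimulated genes 10 were higher and 13 lower, with a median of -0.03, beside 24.7% higher and 24.2% lower over all tested genes. With quantile scaling 9 were higher and 17 lower (median -0.10, and -0.01 over all tested genes). With plain scaling 7 were higher and 18 lower (median -0.12, and -0.09 over all tested genes). Under the length and GC correction the counts were 8 and 14. Gbp5 went from 4.77 and 5.64 to 10.4 and 12.3 CPM (0.99, SE 0.12), Gbp2 and Slfn2 rose by 0.64 each and Isg15 by 0.55. Ifit2 went from 137 and 130 to 98.3 and 88.0 CPM (-0.51, SE 0.08), Ifit3 fell by 0.29 and Stat2 by 0.43, and Rsad2, Usp18 and Mx1 stood at -0.09, -0.11 and -0.05 without passing. The oligoadenylate synthetases Oas1a and Oas1g are close copies whose reads may have been split, and neither held its call after the length and GC correction.

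Genes of apoptosis and survival, a list that mixes genes promoting and opposing cell death, were higher in 15 of 27 cases and lower in 6. Bcl2a1a, an anti-apoptotic BCL2 relative with near-identical copies among which reads may have been split, went from 7.25 and 8.52 to 27.9 and 41.6 CPM (1.98, SE 0.12). Traf1 went from 34.0 and 32.9 to 97.9 and 115 CPM (1.64, SE 0.07), Birc3 rose by 0.97 and Cflar, an inhibitor of caspase 8, by 0.69. Of the BH3-only genes, whose proteins promote death, some fell: Bmf went from 39.9 and 36.2 to 16.8 and 13 CPM (-1.30, SE 0.08) and Bcl2l11, which encodes BIM, from 119 and 114 to 78.6 and 69.5 CPM (-0.65, SE 0.05). The BH3-only genes Pmaip1 and Bbc3 stood at 0.16 and -0.02 without passing. Fas, a death receptor, rose by 1.49.

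Transcription factors of the myeloid lineage were mostly lower. Of 35 tested 9 were higher and 19 lower, with a median of -0.20 (10 and 17 under the length and GC correction). Mef2c went from 26.6 and 24.9 to 16.7 and 12.3 CPM (-0.80, SE 0.10) and Maf from 163 and 168 to 121 and 105 CPM (-0.55, SE 0.06). Foxo3, Cebpa, Rxra, Irf8 and Bcl6 fell by 0.71, 0.53, 0.49, 0.36 and 0.30. In contrast, Ets2 went from 81.7 and 77.8 to 246 and 305 CPM (1.77, SE 0.07), Cebpb from 153 and 158 to 300 and 309 CPM (0.96, SE 0.06) and Spi1, which encodes PU.1, from 330 and 321 to 492 and 569 CPM (0.70, SE 0.06). Mertk, a receptor for the uptake of apoptotic cells and a macrophage marker, went from 67.1 and 62.3 to 35.4 and 28.1 CPM (-1.01, SE 0.08), while Csf1r rose by 0.18, not passing with plain scaling (0.09), and Cd68 stood at -0.05 without passing. Of 10 Kruppel-like factor genes 2 were higher and 4 lower, with Klf9 at -0.56 and Klf4 at -0.42.

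Secreted proteases and matrix genes were higher in 13 of 23 cases and lower in 5. Serpinb2, an inhibitor of plasminogen activators, went from 24.0 and 25.4 to 83.3 and 104 CPM (1.87, SE 0.08), and Sdc4, a cell-surface proteoglycan, from 115 and 121 to 318 and 399 CPM (1.58, SE 0.07). Thbs1 gained 891 CPM (0.39) and Fn1, fibronectin, lost 161 CPM (-0.46, SE 0.08). Housekeeping groups moved little: 4 of 25 ribosome biogenesis genes were higher and 5 lower, 4 of 30 cell cycle genes were higher and 4 lower, and 3 of 19 cathepsin and lysosome membrane genes were higher and 3 lower. In the last group 9 genes were lower with plain scaling. Gpnmb went from 15622 to 13462 CPM on average (-0.21) and did not pass without control replicate 2.

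The largest falls were smaller than the largest rises. The lists held 5 of the 26 genes at least 2-fold lower and 70 of the 127 at least 2-fold higher, beside 687 of all 11407 tested genes. They were chosen with earlier results of these data known, so these counts describe the choice of lists as well. Rnf144b, a ubiquitin ligase gene on chromosome 13 (47122656 to 47247991 in mm10), went from 33.1 and 31.4 to 11.6 and 9.32 CPM (-1.54, SE 0.08, adjusted p = 6.67e-12 in limma). Arrdc3, an arrestin-domain gene of receptor and glucose carrier trafficking, went from 37.3 and 36.2 to 15.3 and 16.6 CPM (-1.16, SE 0.07), and Rgs2, a brake of G-protein signalling, from 113 and 120 to 57.7 and 49.0 CPM (-1.12, SE 0.07). In each of these genes both treated libraries lay below both controls, which the rule that picked them required. Of the arrestin-domain relatives, Arrdc4 rose by 0.67 and Txnip fell by 0.28. Abcd2, a peroxisomal fatty acid transporter, fell by 1.31, Slc46a3, a lysosomal transporter, by 1.10, Slc5a3, an inositol transporter, by 1.12 and Xylt1, which starts proteoglycan chains, by 1.15. The transcript 9930111J21Rik1, a member of a gene family with close copies, stood at 6.11 and 5.0 CPM in the control and at 2.26 and 0.999 with Pam3CSK4, so its value is uncertain.

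The Pam3CSK4 library of replicate 3 lay further from the control than that of replicate 2 in nearly every large change. This held for 125 of the 127 large rises and 25 of the 26 large falls, and for 85.2% of all genes called higher, against 50.3% of all tested genes in which replicate 3 was above replicate 2. The median rise over the control mean was 1.33 in replicate 2 and 1.62 in replicate 3, and the median of the falls was -0.98 and -1.25. The pair differed more than any other pair of the series, with a chi-square per degree of freedom of 7.61 on recovered reads against 3.62 to 4.69. The SE and p-values use a spread pooled over all 5 groups. They can therefore overstate precision where this pair differs most, as for Il1b (206 and 332 CPM, SE 0.13). Without replicate 2, 160 genes were at least 2-fold higher and 61 at least 2-fold lower, and without replicate 3, 110 and 12. The direction of each large change was the same in both libraries, but these genes were chosen on the mean of the same libraries, which favours such agreement.

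**Figure D3:**
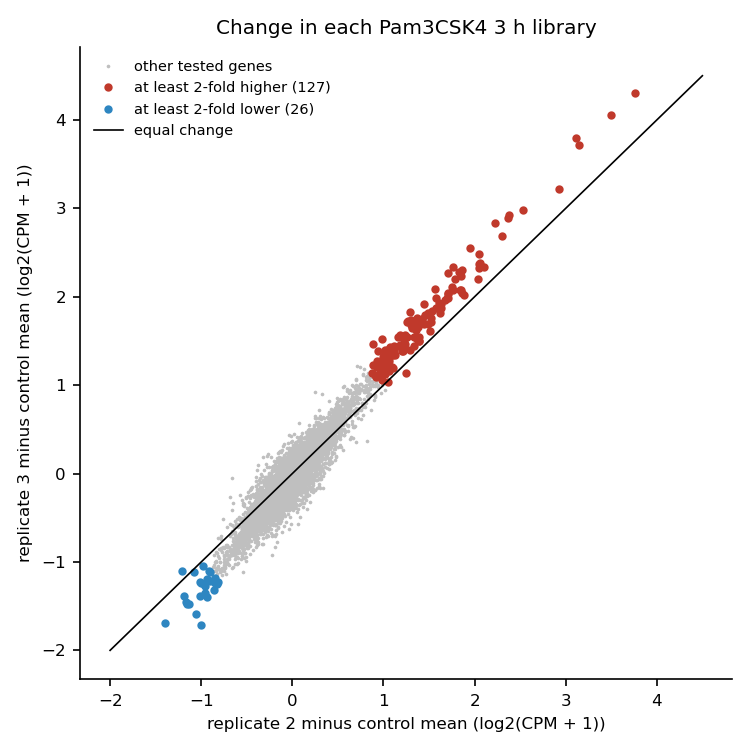
Difference from the control mean in each Pam3CSK4 3 h library on the log2(CPM + 1) scale, replicate 2 on the x axis and replicate 3 on the y axis, 1 point per tested gene. Nearly all of the 127 genes at least 2-fold higher (red) lie above the line of equal change and nearly all of the 26 at least 2-fold lower (blue) below it.

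The comparison with Pam3CSK4 for 1 h uses the same Pam3CSK4 3 h libraries as that with the control. By limma with Benjamini-Hochberg adjustment 1851 genes were higher at 3 h than at 1 h (16.2% of tested genes) and 1746 lower (15.3%). The genes with large changes against the control were chosen on those shared libraries, so their values against 1 h are a description. Some genes were near control level at 1 h: Ptges averaged 31.6 ± 1.89 CPM in the control, 37.3 ± 0.259 at 1 h and 207 ± 54.9 at 3 h (SD, n = 2 per group). Nos2 averaged 16.9 ± 0.407, 16.5 ± 1.49 and 86.1 ± 18.3 CPM, and Irg1 179 ± 0.0412, 192 ± 8.34 and 1018 ± 192. Rasgrp1, a Ras activator, averaged 1.74, 1.20 and 11.5 CPM and was higher than at 1 h by 2.50 (SE 0.12).

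Other genes were already well above the control at 1 h. Tnf averaged 165 ± 0.0782 CPM at 1 h and 207 ± 30.0 at 3 h, a further difference of 0.32 (SE 0.07, adjusted p = 0.00179 in limma), and Cxcl2 129 ± 0.664 and 311 ± 82.3 CPM, a further difference of 1.24 (SE 0.11). Tnfsf9 averaged 16.8 CPM at 1 h and differed by 0.08 at 3 h (adjusted p = 0.527), and Dusp1 differed by -0.03 (adjusted p = 0.796). Egr1, an immediate-early factor, averaged 6.63 ± 0.413 CPM in the control, 20.9 ± 1.05 at 1 h and 7.62 ± 0.297 at 3 h, a fall of 1.34 from 1 h and no call against the control (0.18, adjusted p = 0.129 in limma). Zfp36 averaged 269 CPM at 1 h and 142 at 3 h, lower by 0.92, yet still above the control. Xylt1, at 6.78 CPM at 1 h and 6.29 at 3 h, had reached its low level by 1 h (-0.09, adjusted p = 0.637).

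Against AmTARS at the same time, 1036 genes were higher with Pam3CSK4 (9.08% of tested genes) and 917 lower (8.04%) by limma with Benjamini-Hochberg adjustment. This comparison, too, shares the Pam3CSK4 3 h libraries with that against the control. Cxcl1 averaged 184 ± 49.9 CPM with Pam3CSK4 and 23.3 ± 1.13 with AmTARS (2.90, adjusted p = 3.22e-13), and Socs3 179 and 57.8 CPM (1.62, adjusted p = 1.71e-12). Nos2 averaged 18.6 ± 0.777 CPM with AmTARS, close to its level in the control of 16.9 ± 0.407. Of the 21 sterol synthesis genes 0 were higher with Pam3CSK4 than with AmTARS and 13 were lower. Fdps averaged 75.5 CPM with Pam3CSK4 and 95.1 with AmTARS (-0.33, adjusted p = 1.05e-04), and Scd2, a stearoyl-CoA desaturase outside this list, 57.4 ± 4.21 and 104 ± 2.40 (-0.85, adjusted p = 4.17e-10). Of the interferon-stimulated genes 5 were higher with Pam3CSK4 and 13 lower. Since the doses cannot be set beside each other, these values compare the groups as they were treated.

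**Figure D4:**
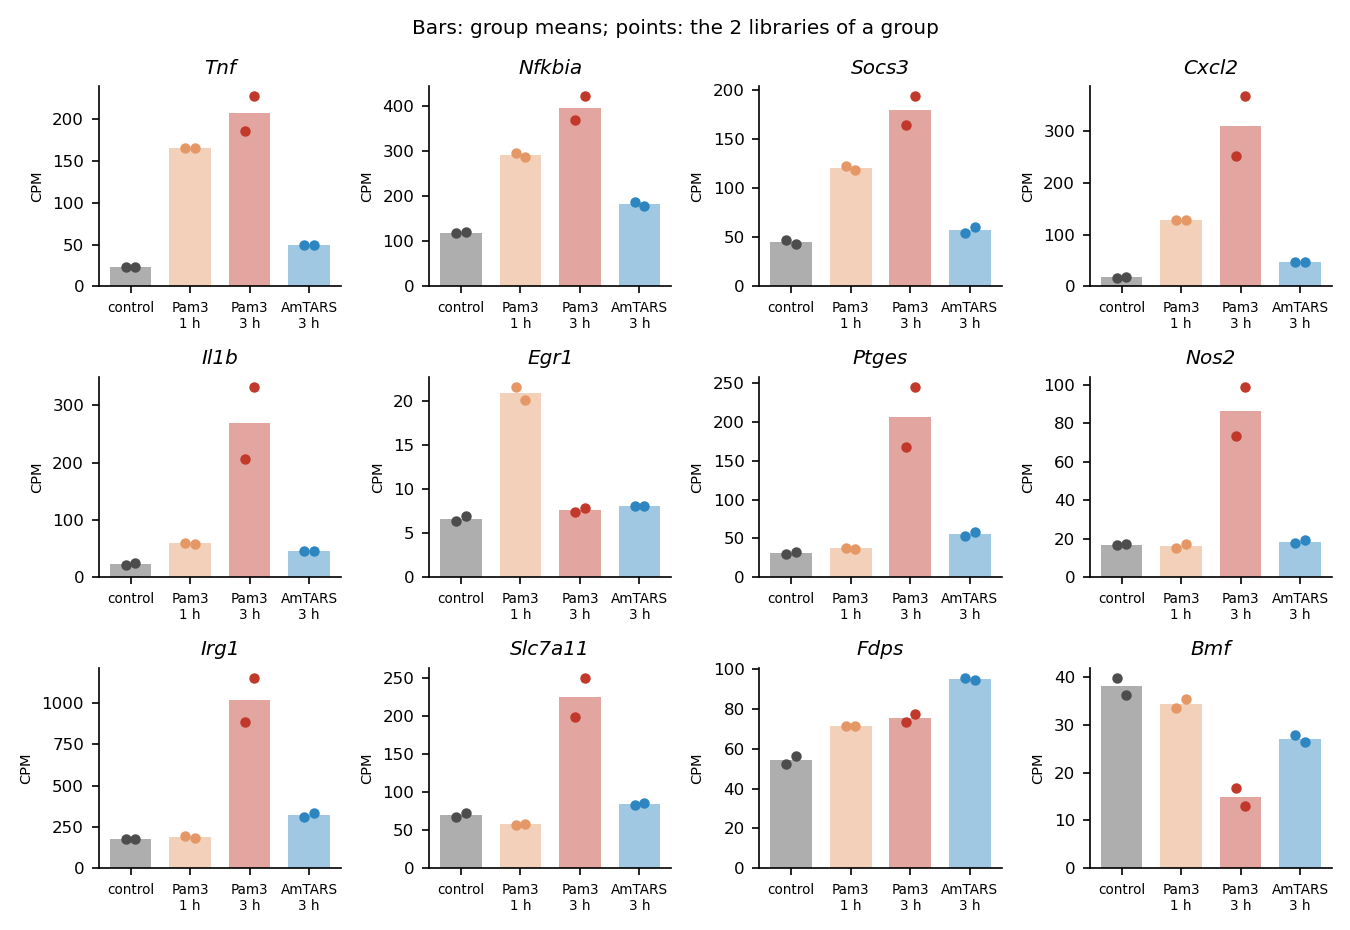
Level in CPM of 12 genes in the control, Pam3CSK4 1 h, Pam3CSK4 3 h and AmTARS 3 h groups, with bars for group means from 0 and points for the 2 libraries of each group. Tnf and Nfkbia are already high at 1 h, Egr1 is high at 1 h alone (20.9 CPM), Ptges, Nos2, Irg1 and Slc7a11 are highest with Pam3CSK4 for 3 h, and Fdps is highest with AmTARS (95.1 CPM).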

How the data were processed

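The submitters' processing notes name STAR 2.5.1, R 3.3.0 and mm10 for these poly-A, strand-specific libraries. For the read counter, the gene annotation and the scaling the entry is: not given in the sources used here. In the deposited table the authors give log2(CPM + 1) values of 11617 genes in 10 libraries. Back-transformed, 100% of the values were whole reads to within 0.1 read, and reads in listed genes ran from 27398791 to 37559810 per library. No listed gene was without reads in any library, so a gene silent in the control can be missing from the table.

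The unit is log2, so limma 3.58.1 in R 4.3.3 was fitted to the deposited log2 values of the 11407 genes whose mean reached 1 CPM. The model had 1 mean per group over all 5 groups and an intensity trend (residual df 5, prior df 14.7), and gave 3 contrasts, each with 2-sided tests adjusted by Benjamini-Hochberg over all tested genes. An exact permutation test of 2 libraries against 2 cannot go below 0.333, so tests rest on limma's moderated spread across genes. SE is the moderated standard error. In simulated data for Pam3CSK4 3 h against control with 11407 genes, 50% of 1.25-fold, 96% of 1.5-fold and 100% of 2-fold changes were recovered, with 15 false calls among 188. The simulation changed 50 genes at each fold, all well above the level rule, and gave every gene the same spread beyond counting noise. In the data 5576 genes were called, so these rates need not hold there.

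The comparison, the 36 gene lists and the 8 marker lists were chosen with earlier results of these data known. Genes were named as the 15 largest rises and falls (adjusted p below 0.05, at least 5 CPM in the higher group, groups not overlapping, no symbols starting with Gm or ending with Rik), the 8 largest gains and losses in CPM, the 8 largest differences each way against Pam3CSK4 1 h and AmTARS 3 h, and list members, some of which are not reported here. Lists were described by counts and medians without a set test. Length, GC content (11366 genes) and coordinates came from GENCODE M21, promoters from RefSeq (GRCm38.p6). The length and GC correction removed natural splines with 5 df. Alternatives were other filters, pseudocounts of 0.25 and 5, other scalings and spread estimates, voom on recovered reads, a replicate block, and leaving out each library. Plain scaling by reads in listed genes was added after seeing the data.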

Additional observations from a re-analysis of the deposited data

Results flagged for a closer look

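The 3 h Pam3CSK4 group differed from the 1 h group of the same ligand in 3597 genes by limma with Benjamini-Hochberg adjustment. The largest log2 differences upward, 3 h minus 1 h, were Cxcl3 at 2.89, Rasgrp1 at 2.50, Ptges at 2.42, Irg1 at 2.39, Gpr84 at 2.32, Nos2 at 2.30, Il1b at 2.12 and Ifi205 at 2.11. The largest downward were Egr1 at -1.34, Rnf144b at -1.27, Rgs2 at -1.19, Bmf at -1.16, Engase at -1.13, Abcd2 at -1.11, Fam214a at -1.10 and Lrrc14b at -1.07. Ifi205 belongs to a family of close copies, and its reads may have been split among them.

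At 3 h the ligands differed in 1953 genes by the same test. The largest log2 differences upward, Pam3CSK4 minus AmTARS, were Cxcl1 at 2.90, Cxcl2 at 2.68, Cxcl3 at 2.57, Il1b at 2.51, Nos2 at 2.14, Tnf at 2.05, Hcar2 at 1.89 and Ccl3 at 1.88. The largest downward were Rgs2 at -1.14, Arrdc3 at -1.11, Rnf144b at -1.10, Engase at -0.89, Mtus1 at -0.86, Scd2 at -0.85, Bmf at -0.83 and Enc1 at -0.80. The rule that picked the genes listed here left out any with overlapping values in the groups compared.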

How the results depend on the processing

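Of 216 values of named genes against the control, 199 kept their direction and side of the threshold under the length and GC correction, where Apoe turned to -0.02, and 208 did under plain scaling, which was chosen after seeing the data. The count of genes at least 2-fold lower, 26, was 43 with a pseudocount of 0.25, 6 with a pseudocount of 5, 16 under the length and GC correction, 58 by voom on recovered reads and 44 with plain scaling. It was 61 without Pam3CSK4 3 h replicate 2 and 12 without replicate 3. The cause was not tested. Leaving out each library gave 3844 to 5535 changed genes against control, 2381 (without Pam3CSK4 1 h replicate 1) to 3186 against 1 h, and 1141 (without Pam3CSK4 3 h replicate 3) to 2103 against AmTARS 3 h, where it was 1193 without AmTARS replicate 1. The looser kappa-B motif matched 91 windows of 2-fold risers and 7813 of all windows, since it contains the stricter motif.

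Same-numbered samples shared a number and not a stated origin: their deviations correlated at 0.12 between Pam3CSK4 3 h and control, and from -0.18 to 0.20 over the 4 pairs of groups that share 2 replicate numbers. With the replicate number as a block, 5690 genes changed, 127 at least 2-fold higher and 26 lower, and the calls of all 216 named genes were kept. With 2 libraries per group, 50% of simulated 1.25-fold changes were recovered, in a simulation whose settings differ from the data. A small change that did not pass is not shown to be absent.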
